A study of Mus musculus with 8 samples.

Results

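Goblet cells fill the intestinal mucus layer, and 9 genes of that work were followed in sorted mouse crypt cells: Muc2, Fcgbp, Zg16, Clca1, Tff3, Agr2, Spdef, Retnlb and Fer1l6. They were taken by name, as every probe set annotated to exactly 1 of the 9 genes, which gave 13 probe sets of 45037 that were not controls, and the 9 genes are among 18193 genes measured. Affymetrix mouse arrays had been hybridized with RNA from intestinal crypt cells of C57BL/6 mice, sorted by flow cytometry. In the first sort an antibody against EphB2, a receptor most abundant on cells at the base of the crypt, separated EphB2 High, EphB2 Medium and EphB2 Low cells, with 2 arrays per group. Each replicate number stands for 1 hybridization that took 1 array of every EphB2 group, and High array 1 below means replicate 1 of EphB2 High. In the second sort, green fluorescence from an Lgr5-EGFP knock-in allele, carried by both groups, separated Lgr5 High from Lgr5 Low cells, with 1 array each and a hybridization of their own. The labels give no genotype and no sex for the mice of the EphB2 sort. They give no age, no number of animals and no gate for any group, and leave unsaid whether the replicates are different mice. All p-values therefore reflect the spread among these arrays, part or all of which may be technical.

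Goblet cells are one of the secretory cell types that arise from crypt stem cells. Muc2 is the gel-forming mucin that makes up the mucus, and the other secreted products here are packed with it or act in it. Goblet precursors start to form in the lower crypt and keep maturing as they move up towards the villus.

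The sorts and the cell types were checked first. Lgr5 itself read 9.48 and 9.64 on the EphB2 High arrays against 5.66 and 4.96 on the EphB2 Low arrays (log2), and 10.15 against 5.75 in the Lgr5 sort. The summed level of 10 epithelial markers stayed between 16.70 and 16.93 on all 8 arrays (log2 of the summed linear values). Of 13 measured immune markers, 12 lay below the median of all genes on every array, the exception being Kit, and of 12 stromal and endothelial markers 11 did, the exception being Vim (both named after their values were seen). Enterocyte markers moved along the EphB2 axis: 0 rose and 11 of 11 fell between EphB2 High and Low, and their summed level ran from 15.00 to 15.05 in High, from 16.04 to 16.09 in Medium and from 17.12 to 17.17 in Low cells. It was 14.44 on the Lgr5 High and 16.43 on the Lgr5 Low array. Of 12 enteroendocrine markers 5 fell and 1 rose, and their summed level ran from 13.37 to 14.39 in High and from 14.93 to 15.30 in Low cells. Of all genes 15.3% fell and 22.0% rose between EphB2 High and Low. The part of these cell types in the levels of the mucus genes was not tested. In such bulk samples, fewer goblet cells and less goblet RNA per cell cannot be told apart.

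Promoter sequence was at hand for 4 of the 9 genes (RefSeq, GRCm38.p6, from 250 bases before to 50 after the start of the transcript). Those of Muc2 and Fcgbp are shown because both genes fell in EphB2 High cells, and that of Spdef because it rose there. Muc2 lies at chr7:141690090-141690389 on the plus strand, Fcgbp at chr7:28070986-28071285 on the plus strand, and Spdef at chr17:27728902-27729201 on the minus strand. Each is written 5′ to 3′ along its gene. Capitals mark 2 searched motifs, read on both strands: CAGCTG, an E-box of the kind bound by factors such as Atoh1, and TTTATG, of the kind bound by Cdx factors.
Muc2: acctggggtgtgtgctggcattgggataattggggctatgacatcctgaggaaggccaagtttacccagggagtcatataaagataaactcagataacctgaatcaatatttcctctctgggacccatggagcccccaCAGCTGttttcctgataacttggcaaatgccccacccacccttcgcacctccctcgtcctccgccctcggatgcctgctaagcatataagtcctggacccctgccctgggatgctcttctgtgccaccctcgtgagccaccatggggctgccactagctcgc
Fcgbp: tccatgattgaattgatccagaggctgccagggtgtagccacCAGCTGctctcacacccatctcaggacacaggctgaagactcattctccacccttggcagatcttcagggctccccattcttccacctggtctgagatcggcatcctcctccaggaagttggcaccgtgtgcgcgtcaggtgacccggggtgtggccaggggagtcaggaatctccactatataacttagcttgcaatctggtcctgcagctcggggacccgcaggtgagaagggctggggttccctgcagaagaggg
Spdef: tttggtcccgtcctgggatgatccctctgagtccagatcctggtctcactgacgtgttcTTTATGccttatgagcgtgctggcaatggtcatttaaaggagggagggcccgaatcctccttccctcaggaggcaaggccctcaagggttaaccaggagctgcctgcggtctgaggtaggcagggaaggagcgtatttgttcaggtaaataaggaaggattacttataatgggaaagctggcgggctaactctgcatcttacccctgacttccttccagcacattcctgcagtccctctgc
CAGCTG stood 112 bases before the start of Muc2 and 208 before that of Fcgbp, and was not found in the window of Spdef or Agr2. It occurs in 16.3% of all 32851 promoter windows of this length. TTTATG stood in the windows of Spdef, 191 bases before the start, and Agr2, 47 before it, and occurs in 11.9% of all windows. Another motif searched, CCGGAT, the kind that Spdef itself binds, was found in 0 of the 4 windows and in 6.04% of all. The motifs do not overlap in the windows printed, and a match is a description of the letters only.

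Between EphB2 High and EphB2 Low cells the 9 genes split. Spdef and Retnlb rose in EphB2 High cells, Muc2, Clca1, Fcgbp, Zg16 and Fer1l6 fell, and Tff3 and Agr2 did not pass (limma, Benjamini-Hochberg over 18193 genes, adjusted p below 0.05). Among all genes 37.3% were called in this comparison, 22.0% as higher and 15.3% as lower in EphB2 High cells, and 7 of the 9 were called. The median difference of the 9 genes was -0.40 (log2), against 0.01 for all genes. With 1 array left out, 4 to 6 of the 9 were called. The fewest were called without High array 2, and the genes concerned are named with their values.

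**Figure D1:**
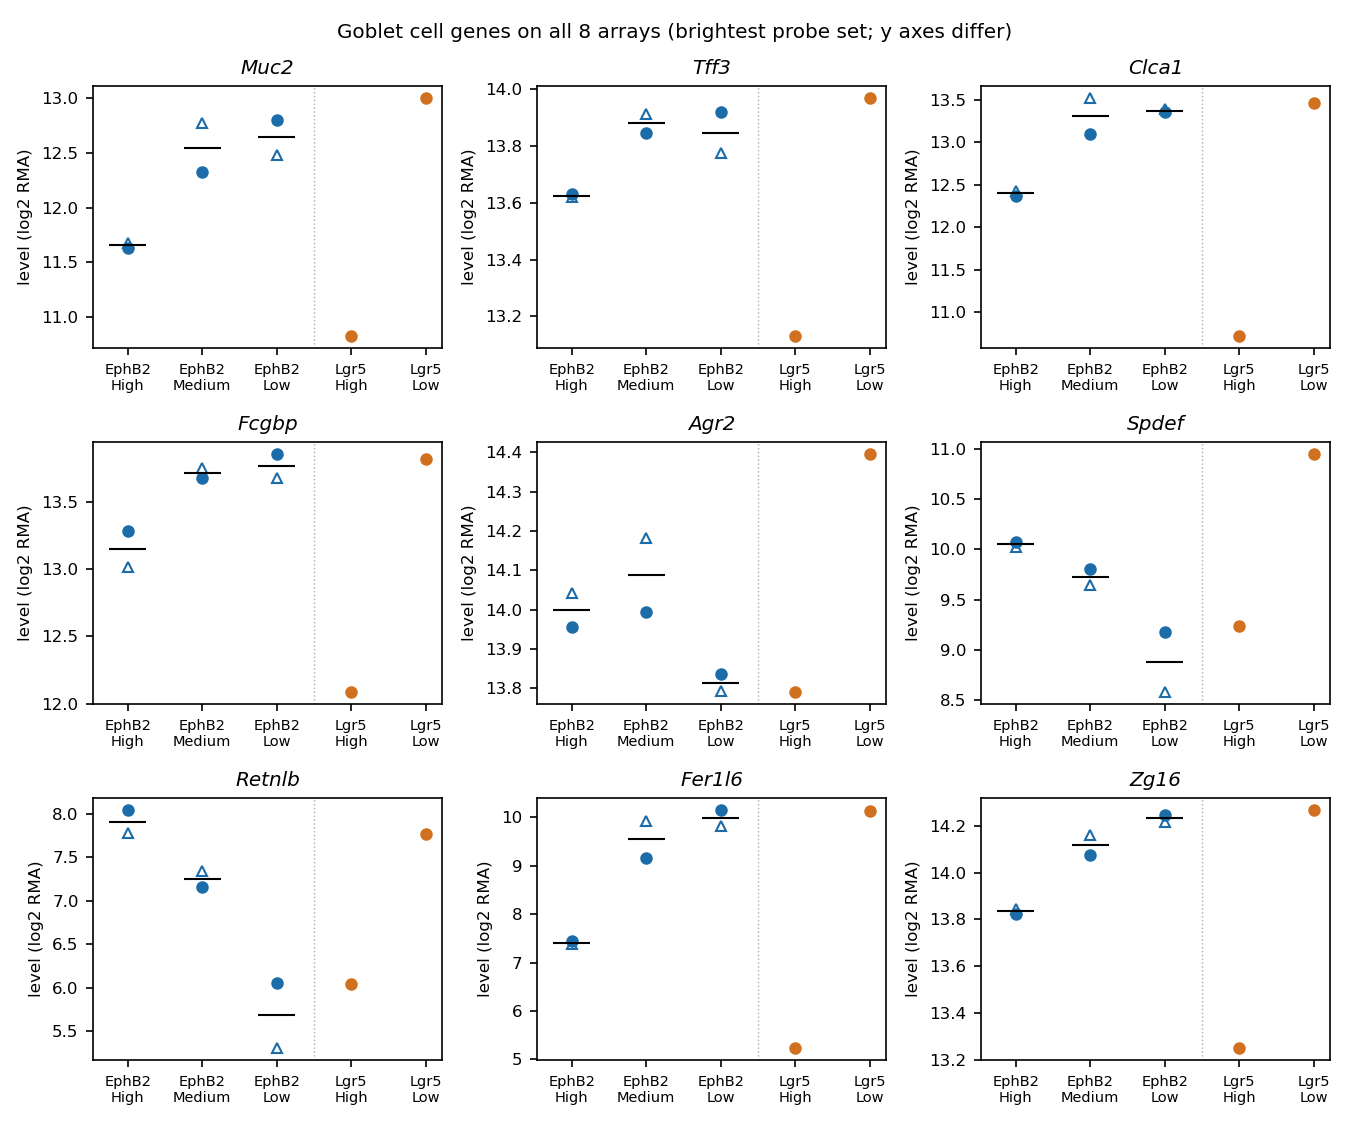
Level (log2 RMA value) of each of the 9 genes on all 8 arrays, by sort group; filled circles are replicate 1, open triangles replicate 2, black bars the mean of 2 arrays; blue is the EphB2 sort and orange the Lgr5 sort with 1 array per group, and each panel has its own y axis. Muc2, Clca1, Fcgbp, Zg16 and Fer1l6 are lowest in EphB2 High among the EphB2 groups, Spdef and Retnlb are highest there, and all 9 are lower in Lgr5 High than in Lgr5 Low.

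Muc2, the mucin itself, was lowest in EphB2 High cells. It read 11.63 and 11.67 in EphB2 High, 12.33 and 12.77 in EphB2 Medium, and 12.80 and 12.49 in EphB2 Low cells. Both EphB2 High arrays lay below all 4 others, while the Medium and Low arrays overlapped. Muc2 fell by 0.99 in High against Low on the log2 scale (SE 0.19, n = 2 arrays per group; 1.98-fold; adjusted p = 0.00981). The differences within the first and second hybridization were -1.17 and -0.81. That call was lost narrowly without either EphB2 High array, at adjusted p = 0.0520 without array 1 and 0.0512 without array 2.

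Fcgbp and Clca1, which act in the gel, fell with it. Fcgbp, a large protein that is bound into mucus, read 13.28 and 13.02 in EphB2 High, 13.68 and 13.75 in Medium, and 13.85 and 13.67 in Low cells. Its High arrays were again the lowest of the 6, and Medium and Low overlapped. The gene fell by 0.62 between High and Low (SE 0.14; 1.53-fold; adjusted p = 0.0180), but the call was lost without High array 2 (adjusted p = 0.102) and without Low array 1 (0.0704). Clca1, a secreted protease that processes the mucin network, read 12.37 and 12.43 in High, 13.10 and 13.52 in Medium, and 13.35 and 13.39 in Low cells. It fell by 0.98 (SE 0.16; 1.97-fold; adjusted p = 0.00597), with -0.99 and -0.96 in the first and second hybridization, and kept the call whichever array was left out.

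Zg16, a lectin-like protein of mucus that binds the cell wall of Gram-positive bacteria, read 13.82 and 13.84 in EphB2 High, 14.08 and 14.16 in Medium, and 14.25 and 14.22 in Low cells. On this brightest probe set the 3 groups did not overlap and the order was High, Medium, Low from lowest to highest. Its fall of 0.40 between High and Low (SE 0.11; 1.32-fold; adjusted p = 0.0323) was small, and the call was lost whichever array was left out, at adjusted p between 0.0632 without either EphB2 Medium array and 0.130 without High array 1. The others were 0.125 without High array 2, 0.0842 without Low array 1 and 0.0784 without Low array 2. The 2 further probe sets of the gene gave larger differences, described further on, and in both of them the Medium and Low arrays overlapped.

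Tff3, a trefoil peptide that is secreted with mucin and helps repair the epithelium, did not pass in any EphB2 comparison. It read 13.63 and 13.62 in EphB2 High, 13.84 and 13.91 in Medium, and 13.92 and 13.77 in Low cells. The High arrays were the lowest, but the difference from Low was only -0.22 ± 0.11 (SE; adjusted p = 0.195), with a 95% interval from -0.50 to 0.06. It did pass with a trended and robust eBayes, an alternative setting of limma (adjusted p = 0.0225). Levels of Tff3, Agr2 and Zg16 lay near the top of the scale, where the highest probe set of an array read between 14.58 and 14.70. Whether that position limits their differences was not tested.

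Agr2, a disulfide isomerase of the endoplasmic reticulum that goblet cells need to produce Muc2, read 13.96 and 14.04 in EphB2 High, 13.99 and 14.18 in Medium, and 13.84 and 13.79 in Low cells. Low arrays were the lowest and the others overlapped. High exceeded Low by 0.19 ± 0.12 (adjusted p = 0.300; 95% interval -0.11 to 0.48).

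Spdef, an ETS family transcription factor that drives the maturation of goblet and Paneth cells, went against the mucus genes. It read 10.08 and 10.02 in EphB2 High, 9.81 and 9.65 in Medium, and 9.18 and 8.58 in Low cells, and the 3 groups did not overlap. Spdef rose by 1.17 ± 0.21 in High against Low (2.25-fold; adjusted p = 0.00766), with 0.90 and 1.45 in the first and second hybridization, and kept the call whichever array was left out.

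The only member with a larger rise was Retnlb, a small cysteine-rich secreted protein that damages bacterial membranes. It read 8.04 and 7.77 in EphB2 High, 7.16 and 7.34 in Medium, and 6.06 and 5.31 in Low cells. The order ran High, Medium, Low from highest to lowest, with no overlap. Retnlb rose by 2.23 ± 0.26 (4.68-fold; adjusted p = 0.00194), with 1.99 and 2.47 in the first and second hybridization, and kept the call whichever array was left out. Paneth cell markers moved the same way between these groups, where 22.0% of all genes rose and 15.3% fell. Of 7 measured, 6 rose and 0 fell, among them the phospholipase Pla2g2a (2.76 ± 0.13), the defensin Defa3 (2.40 ± 0.22, one of a near-identical family) and the protease Mmp7 (2.15 ± 0.17), and their summed level ran from 15.60 to 15.77 in High and from 14.77 to 14.88 in Low cells. In the Lgr5 sort it was 15.64 in High and 16.11 in Low. Tuft cell markers moved with them too: 6 of 9 rose and 1 fell, with the kinase Dclk1 up by 3.36 ± 0.53, and their summed level ran from 10.80 to 11.41 in High and from 9.21 to 9.61 in Low cells. Of 13 immune markers, Kit (2.37 ± 0.29) and Cd79b (0.99 ± 0.23) rose, the latter not without High array 1 (adjusted p = 0.0808) or Low array 2 (0.0934). The part of these cell types in the levels of Spdef and Retnlb was not tested.

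Fer1l6, a member of the ferlin family of membrane proteins, had the largest difference of the 9. It read 7.44 and 7.37 in EphB2 High, 9.16 and 9.92 in Medium, and 10.15 and 9.82 in Low cells. The High arrays stood far below the other 4, and Medium and Low overlapped. Fer1l6 fell by 2.58 between High and Low (SE 0.26; 5.96-fold; adjusted p = 0.00137), with -2.70 and -2.45 in the first and second hybridization, and kept the call whichever array was left out.

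**Figure D2:**
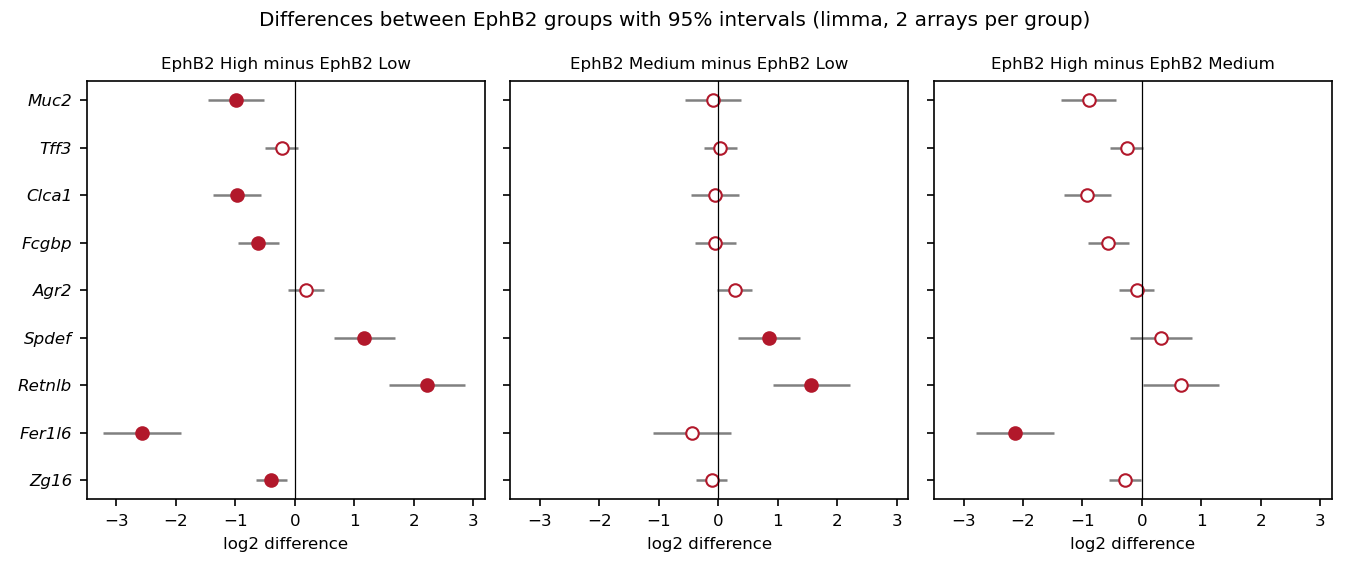
Log2 difference of each gene in the 3 EphB2 comparisons (x axis), with limma's 95% interval; filled points passed an adjusted p of 0.05, open points did not. Fer1l6 reaches -2.58 between High and Low, and Spdef and Retnlb are the filled points of Medium minus Low.

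The EphB2 Medium cells were then set beside the High and Low cells. Position in the crypt was not itself measured. By group means, 5 of the 9 genes were highest in EphB2 Low (Muc2, Clca1, Fcgbp, Fer1l6 and Zg16), 2 in Medium (Tff3 and Agr2) and 2 in High (Spdef and Retnlb). For 0 of the 9 was the highest group called above both others by limma, and for 1, Retnlb, it was above both at an unadjusted p below 0.05. Neither share was counted over all genes, of which 1.36% were called between High and Medium. Against EphB2 Low, 2 of 9 genes were called, both higher in Medium, where 24.7% of all genes were called, 14.6% higher and 10.1% lower. At an unadjusted p below 0.05 the count lower in Medium was also 0. Retnlb rose in Medium by 1.57 ± 0.26 (adjusted p = 0.0116) and Spdef by 0.85 ± 0.21 (adjusted p = 0.0348). The call of Retnlb was lost without Medium array 1 (adjusted p = 0.0509) and array 2 (0.0691). That of Spdef was lost without any array but Low array 1, at 0.0676 without either EphB2 High array, 0.145 and 0.106 without Medium array 1 and 2, and 0.0744 without Low array 2.

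Muc2 differed between Medium and Low by -0.09 ± 0.19 (95% interval -0.56 to 0.38), Clca1 by -0.06 ± 0.16 (-0.46 to 0.34) and Fcgbp by -0.05 ± 0.14 (-0.40 to 0.29). For each of these the hybridizations gave opposite signs: Muc2 was at -0.47 and 0.28, Clca1 at -0.25 and 0.13, and Fcgbp at -0.18 and 0.07, in the first and second. Fer1l6 did the same, at -0.98 and 0.11, with -0.44 ± 0.26 in the fit (adjusted p = 0.300). Tff3 was at 0.03 ± 0.11, Agr2 at 0.27 ± 0.12 (adjusted p = 0.167, or 0.0228 with the trended and robust setting) and Zg16 at -0.11 ± 0.11.

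In EphB2 High against Medium, Fer1l6 was the single gene of the 9 called. It fell by 2.14 on the log2 scale (SE 0.26; 4.40-fold; adjusted p = 0.0307). Of all genes 1.36% were called there, 0.214% higher and 1.15% lower. This call did not hold with the hybridization as a block, at adjusted p = 0.0575. It was also lost whichever array was left out: 0.120 and 0.198 without High array 1 and 2, 0.0946 and 0.114 without Medium array 1 and 2, and 0.0657 without either EphB2 Low array. Clca1 (-0.91 ± 0.16, adjusted p = 0.0767), Muc2 (-0.89 ± 0.19, 0.111), Fcgbp (-0.56 ± 0.14, 0.156) and Zg16 (-0.28 ± 0.11, 0.325) did not pass. Their arrays did not overlap, but the share of all genes without overlap was not counted. Counting unadjusted p-values below 0.05, with no such count for all genes, 5 of the 9 were lower and 1, Retnlb, was higher (0.66 ± 0.26, adjusted p = 0.342) in High. Tff3 (-0.25 ± 0.11), Agr2 (-0.09 ± 0.12) and Spdef (0.32 ± 0.21) were not among them.

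In the Lgr5 sort, all 9 genes were lower in Lgr5 High than in Lgr5 Low cells, which held for 55.6% of all genes. With 1 array per group there is no test, and a 2-fold difference was used as the rule of size. Lower by at least that much were 7 of the 9, against 5.07% of all genes, and 0 were higher by as much, against 2.34%. The median difference of the 9 was -1.72, against -0.05 for all genes. Fer1l6 read 5.23 in Lgr5 High and 10.12 in Lgr5 Low cells, a difference of -4.88 (29.5-fold). Clca1 read 10.72 and 13.46 (-2.75; 6.71-fold), and Muc2 10.82 and 13.00 (-2.18; 4.52-fold).

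The other gel proteins were lower as well. Fcgbp read 12.09 in Lgr5 High and 13.82 in Lgr5 Low cells (3.32-fold), and Zg16 13.25 and 14.27 (2.02-fold). Tff3 read 13.13 and 13.97 (1.79-fold) and Agr2 13.79 and 14.40 (1.52-fold), both short of 2-fold.

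Spdef and Retnlb ran in opposite directions in the 2 sorts. Spdef read 9.24 in Lgr5 High and 10.95 in Lgr5 Low cells, and Retnlb 6.05 and 7.77, each a difference of -1.72 (3.29-fold), while both rose in EphB2 High cells. Whether the sorts differ was not tested, because the Lgr5 groups have 1 array each and their own hybridization. Mice of the Lgr5 sort also carried the knock-in allele, while the genotype of the EphB2 mice is not given. Enterocyte markers were lower by at least 2-fold in 10 of 11 and enteroendocrine markers in 10 of 12, beside the mucus genes. Tuft markers were so in 4 of 9 and Paneth markers in 0 of 7, beside 5.07% of all genes. Their part in the result was not tested.

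**Figure D3:**
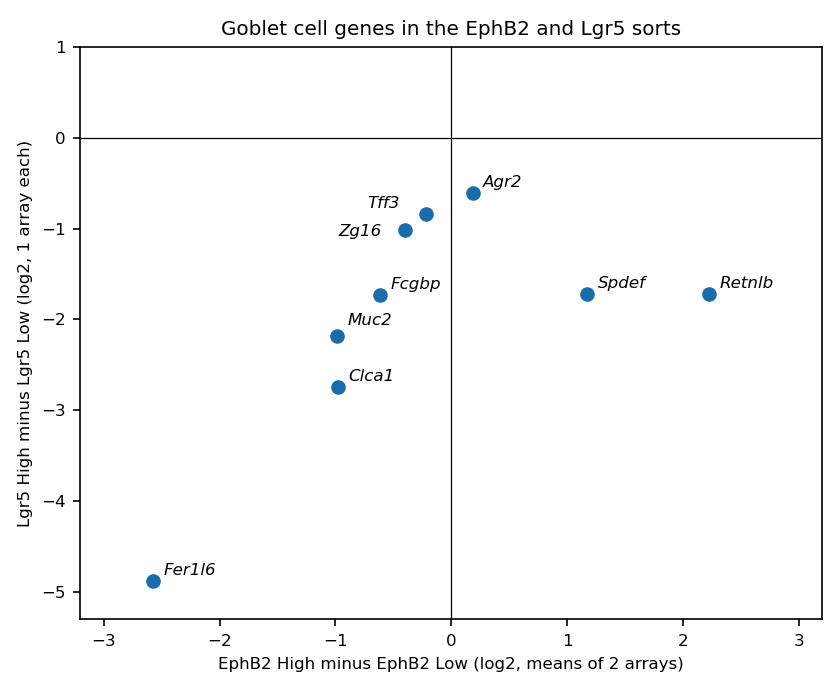
Difference between EphB2 High and Low (x axis, log2, means of 2 arrays) against the difference between Lgr5 High and Low (y axis, log2, 1 array each) for the 9 genes. All points lie below 0 on the y axis; Spdef at 1.17 and Retnlb at 2.23 lie far to the right of 0 on the x axis, and Agr2, which did not pass, lies at 0.19.

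Of the 9 genes, 3 had more than 1 probe set, and these gave 4 further readings, tested in a fit over all 45037 probe sets. In that fit 27.4% of probe sets were called between EphB2 High and Low, 15.3% between Medium and Low, and 0.300% between High and Medium. A second Clca1 set (1459889_at) read 6.98 and 6.83 in High, 8.17 and 9.23 in Medium, and 8.87 and 8.69 in Low cells. It fell by 1.87 between High and Low in the limma fit (SE 0.34, adjusted p = 0.0112), a larger fall than the 0.98 of the brighter set. Its Lgr5 difference was -3.92, from 4.94 in Lgr5 High cells, below the array medians, and 8.86 in Lgr5 Low cells.

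Zg16 had a set (1428358_at) at 12.73 and 12.42 in High, 13.36 and 13.44 in Medium, and 13.63 and 13.43 in Low cells, which fell by 0.96 (SE 0.16; adjusted p = 0.00887). Another set (1428359_s_at) fell by 0.70 (SE 0.13; adjusted p = 0.0117). The brightest set, 1434137_x_at, carries a suffix that the array maker gives to probe sets with probes that may bind other transcripts. It gave -0.40 ± 0.12 and did not pass in this fit (adjusted p = 0.0618). In the Lgr5 sort the 3 sets were at -2.40, -1.79 and -1.02. The second Agr2 set (1455802_x_at) gave 0.05 ± 0.14 between High and Low and -0.54 in the Lgr5 sort, and was called in 0 of the 3 EphB2 comparisons, as at an unadjusted p below 0.05. For Clca1 and Zg16 the dimmer set showed the larger difference in both sorts.

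**Figure D4:**
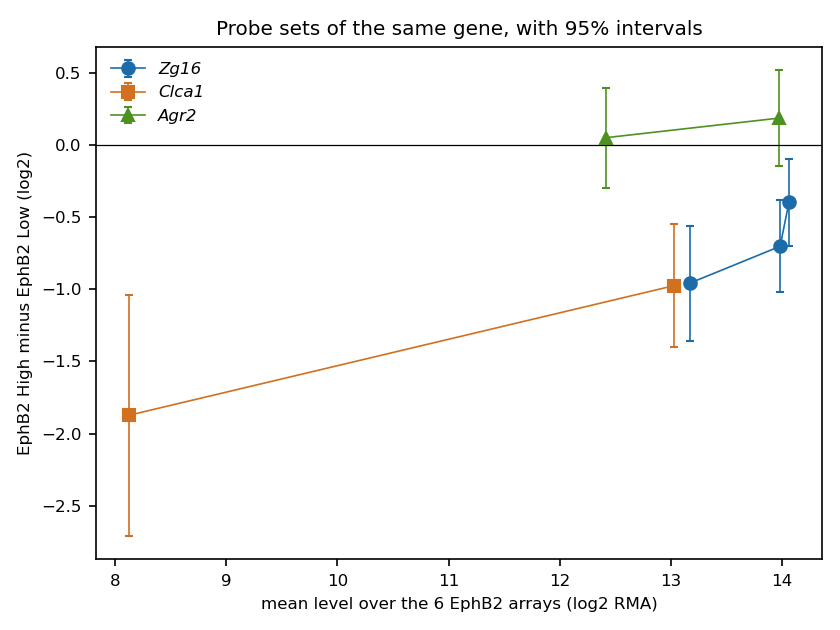
Difference between EphB2 High and Low (y axis, log2, with limma's 95% interval from the fit over all probe sets) against the mean level over the 6 EphB2 arrays (x axis, log2 RMA value) for every probe set of Zg16, Clca1 and Agr2; lines join sets of 1 gene. The dimmer Clca1 set lies at -1.87 and the brighter at -0.98; the Zg16 sets lie at -0.96, -0.70 and -0.40 in order of level.

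Likeness between the genes was measured as Pearson's r over the arrays, which share hybridizations and sorts, and is given as a description. Muc2, Tff3, Clca1, Fcgbp, Fer1l6 and Zg16 correlated at 0.95 to 0.99 in all 15 pairs over the 8 arrays, and at 0.88 to 0.99 over the 6 EphB2 arrays alone. Spdef and Retnlb correlated with each other at 0.88 over 8 arrays, and with those 6 genes at only -0.06 to 0.26. Over the EphB2 arrays alone the latter range was -0.84 to -0.44. Agr2 lay between the 2 sets over the 8 arrays, at 0.86 with Spdef, 0.72 with Retnlb and 0.39 to 0.53 with those 6 genes.

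Outside the 9 genes, the 2 most alike to each were found among 2647 varying genes. The calpain Capn9 and Bcas1 came first for Muc2 (r = 0.98 for both), and Bcas1 and Capn9 for Tff3 (0.98 and 0.97). Pqlc3 and Capn9 were closest to Clca1 (0.98 for both), Myl7 and the nucleoside transporter Slc28a3 to Fcgbp (0.98 and 0.97). The fatty acid-binding protein Fabp1, one of the enterocyte markers above, was closest to Fer1l6 (0.99) and Zg16 (0.99), followed by Capn9 (0.99) and Bcas1 (0.98). High r with these members was therefore not confined to goblet cell genes. Of the 2647 genes, 31 lay above r = 0.95 with Fer1l6, 19 with Fcgbp, 18 with Zg16 and 13 with Clca1. The count was 8 for Spdef, 6 each for Muc2 and Tff3, 2 for Retnlb and 0 for Agr2. Spdef was closest to Hpd (0.99) and the corepressor Cbfa2t3 (0.97), Retnlb to the chemokine Ccl9 (0.98) and Rcan3 (0.96), and Agr2 to Hao2 (0.93) and the endocrine factor Insm1 (0.92). Capn9 fell by 1.62 between EphB2 High and Low (adjusted p = 0.00243) and Ccl9 rose by 1.72 (adjusted p = 0.00336).

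Other goblet cell markers split in the same comparison, where 22.0% of all genes rose and 15.3% fell. Of 26 measured, 6 rose, 9 fell and 11 did not pass between EphB2 High and Low, with a median of -0.12; with 1 array left out, 2 to 6 rose and 4 to 8 fell. The actin-severing protein Scin fell by 2.24 (SE 0.21, adjusted p = 0.00102), the calcium-binding protein S100a6 by 1.66 (SE 0.17, adjusted p = 0.00127) and Lrrc26, a potassium channel subunit, by 1.15 (SE 0.13, adjusted p = 0.00184). Galnt12, which starts O-glycans on mucins, rose by 1.52 ± 0.18 (adjusted p = 0.00218). In the Lgr5 sort 16 of the 26 were at least 2-fold lower and 0 at least 2-fold higher, beside 5.07% and 2.34% of all genes. Their median was -1.40, and Galnt12 was at 0.09.

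Enzymes that build the sugar chains of mucins moved both ways between EphB2 High and Low, where 22.0% of all genes rose and 15.3% fell. Of 25 measured, 3 rose and 8 fell, with a median of -0.10; with 1 array left out, 1 to 3 rose and 5 to 8 fell. B3gnt7, which extends the chains, fell by 2.31 (SE 0.22, adjusted p = 0.00110), the sulfotransferase Chst4 by 1.48 (SE 0.21, adjusted p = 0.00348) and the initiating enzyme Galnt6 by 0.94 (SE 0.14, adjusted p = 0.00397). Besides Galnt12, the risers were St6galnac2 (0.62 ± 0.11) and Gne (0.39 ± 0.11), both named after their values were seen. The call of St6galnac2 was lost without High array 2 (adjusted p = 0.0572), and that of Gne whichever array was left out (0.0661 without either EphB2 Medium array, and up to 0.140, without High array 2).

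Transcription factors of the goblet lineage mostly rose, as Spdef did, beside 22.0% of all genes that rose and 15.3% that fell. Of 10 measured, 7 rose, 2 fell and 1 did not pass between EphB2 High and Low, with a median of 0.86; with 1 array left out, 4 to 7 rose and 1 or 2 fell. The forkhead factor Foxa2 rose by 1.79 ± 0.16 (adjusted p = 0.000943), Creb3l4 by 1.10 ± 0.17 (adjusted p = 0.00408) and the secretory lineage factor Gfi1 by 0.85 ± 0.15 (adjusted p = 0.00639). Xbp1, a factor of the unfolded protein response, fell by 0.78 (SE 0.12, adjusted p = 0.00479). The other gene that fell was Klf4 (-0.79 ± 0.19, adjusted p = 0.0225), which is tied to goblet maturation, and Atoh1, which commits cells to the secretory fate, rose by 0.97 ± 0.25 (adjusted p = 0.0292). Both were named after their values were seen. The call of Klf4 was lost without High array 1 (0.110), Low array 1 (0.0789) and Low array 2 (0.0825), and that of Atoh1 without High array 1 (0.0663), High array 2 (0.143) and Low array 2 (0.111). In the Lgr5 sort, Atoh1 (-1.22) and Gfi1 (-1.54) were the 2 of 10 that were at least 2-fold lower, beside 5.07% of all genes. Foxa2 was at 0.74.

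Of 24 measured genes that fold and export secreted proteins, 7 rose and 1 fell, beside the 22.0% and 15.3% of all genes that did, with a median of -0.02; with 1 array left out, 2 to 7 rose and up to 1 fell. The disulfide isomerase Pdia5 rose by 0.95 ± 0.13 (adjusted p = 0.00304) and the prolyl isomerase Fkbp11 by 1.19 ± 0.22 (adjusted p = 0.00841). Dnajc10 rose by 0.54 ± 0.11, a call lost without High array 1 (adjusted p = 0.0628), High array 2 (0.0687) and Low array 2 (0.0505). Txndc5 rose by 0.65 ± 0.14, a call lost without High array 1 (adjusted p = 0.0796) and Low array 2 (0.0545). The single gene that fell was Ern1, the stress sensor found in most cells (-0.87 ± 0.22, adjusted p = 0.0270), whereas its mucosal relative Ern2 rose by 0.75 ± 0.16 (adjusted p = 0.0143). Both were named after their values were seen. The call of Ern2 was lost without High array 1 (0.0792), and that of Ern1 without any of the High or Low arrays (0.0550 to 0.128).

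Of 9 other mucins measured, 0 rose and 2 fell between EphB2 High and Low by limma, beside 22.0% and 15.3% of all genes. At least 2-fold differences in the Lgr5 sort numbered 0. Of the 9 mucins, 6, Muc5b among them, lay below the median of all genes on every array. The cell surface mucins Muc3 and Muc13 fell by 0.84 (SE 0.14, adjusted p = 0.00573) and 0.39 (SE 0.11, adjusted p = 0.0369), and the call of Muc13 was lost whichever array was left out (0.0641 without Low array 2, and up to 0.154, without High array 2). The gel-forming mucin Muc5b, which belongs to other tissues, read 5.55 and 5.37 in EphB2 High and 5.76 and 5.68 in EphB2 Low cells, and differed by only -0.26 ± 0.12 (adjusted p = 0.154).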

How the data were processed

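Expression was measured on 8 arrays, 6 of the EphB2 sort and 2 of the Lgr5 sort. The deposited values are log2 intensities made by RMA, per the submitters' processing notes; its version, and whether all arrays were normalized together, are not given in the sources used here. Per the labels' protocols, RNA was amplified isothermally before hybridization. Array medians lay between 6.12 and 6.20, and RMA hides any change in total RNA per cell. The number of arrays limits the precision.

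Of 45101 probe sets, 64 controls were left out, 34945 named 1 gene, 932 several and 9160 none in the annotation used. For each of 18193 genes the single-gene probe set with the highest mean on the EphB2 arrays was used. Symbols came through gene IDs from the RefSeq table, where 34754 of the probe sets naming 1 gene found a match. Group means of the 6 EphB2 arrays were fitted with limma 3.58.1 in R 4.3.3 (lmFit, contrasts.fit, eBayes, 2-sided, 3 residual degrees of freedom), with Benjamini-Hochberg adjustment over all genes. Errors with differences are limma's standard errors. The fit was tested on simulated data. The Lgr5 arrays were described without a test.

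Same-numbered EphB2 arrays share a hybridization in the labels, and their deviations from group means correlated at 0.45 (High and Medium), 0.13 (High and Low) and 0.21 (Medium and Low). The fit with that number as a block was an alternative. Members and gene lists were chosen with earlier results of these data known. Besides the 9 genes, the text names up to 4 genes per list by smallest p between EphB2 High and Low, and for each member the 2 genes of highest r over the 8 arrays, among genes with an SD of at least 0.5 whose highest array was above the median. Of the 13 listed Paneth markers 7 had a single-gene probe set.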

Additional observations from a re-analysis of the deposited data

How the results depend on the processing

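With the hybridization as a replicate block, 7 of the 9 genes were called between EphB2 High and Low, 2 between Medium and Low, and 0 between High and Medium, where the fit without it called 7, 2 and 1; the call of Fer1l6 was the one lost. With 1 array left out, 4 to 6, 0 to 2 and 0 were called. With the filter on dim genes, which removed Retnlb, the counts were 6, 1 and 2 of 8 genes. Of the 9649 genes left by that filter, 6191, 4811 and 512 were called. With all probe sets in the fit the counts were 6, 1 and 0 of 9. A trended and robust eBayes called 8, 3 and 5. It added Tff3 between High and Low (limma, adjusted p = 0.0225), Agr2 between Medium and Low (0.0228), and Muc2, Clca1, Fcgbp and Zg16 between High and Medium. In the Lgr5 sort, 7 of 9 were at least 2-fold lower, and 6 after quantile normalization, where Zg16 was at -0.91. Fits with all 8 arrays gave the same values as those with 6, because single arrays add no spread.

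Of all genes, 6792 were called between High and Low and 4245 to 6160 with 1 array left out; 4489 and 988 to 4199 between Medium and Low; 248 and 0 to 101 between High and Medium, with 512 under the dim filter, 95 with all probe sets, 135 with the most variable probe set and 509 with a trended and robust eBayes. The causes were not tested. The block, the dim filter, the fit of all probe sets and the trended and robust eBayes leave the difference of a probe set unchanged. So does leaving out an array of a group not compared. Under these settings the direction was fixed in advance, and only a call could change. Over the alternatives to the EphB2 differences of single members, 307 values kept their direction and side of the threshold, 27 lost a call, 7 gained one and 7 changed sign. None of those 7 was called with either sign, and each arose on leaving out 1 array. Between Medium and Low, with single arrays left out, Muc2 ranged from -0.31 to 0.13 (above 0 without Medium array 1 or Low array 1), Clca1 from -0.27 to 0.15 (above 0 without Medium array 1), Fcgbp from -0.14 to 0.037 (above 0 without Low array 1) and Tff3 from -0.038 to 0.11 (below 0 without Medium array 2 or Low array 2). Between High and Medium, Agr2 ranged from -0.18 to 0.0058 (above 0 without Medium array 2). Leaving out arrays for the gene lists was added after seeing the data. Tff3, Agr2 and Zg16 read near the top of the scale, which may limit what the arrays resolve, and 2 arrays per group limit small differences. Retnlb in EphB2 Low and Lgr5 High cells, and Fer1l6 in Lgr5 High cells, read below the array medians. Whether such low readings affect the fold differences was not tested.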

Other observations

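Relatives of the 9 genes were measured too. Of 20 measured, 5 rose, 3 fell and 12 did not pass between EphB2 High and Low. Of all genes 22.0% rose and 15.3% fell there. Of the 20 relatives, 10 lay below the median of all genes on every array. Agr3, the closest relative of Agr2, rose by 2.61 ± 0.22 (limma, adjusted p = 0.000819) and was higher in the Lgr5 High array by 1.60, where Agr2 was lower. Clca3b rose by 2.29 ± 0.25 (adjusted p = 0.00167) and Clca3a2 by 1.89 ± 0.34 (adjusted p = 0.00810), while Clca4b fell by 1.40 (SE 0.12, adjusted p = 0.000935) and Clca4a fell by 3.92 (SE 0.70, adjusted p = 0.00746). Clca3a2 and Clca4a were named after their values were seen, and probe sets of this gene cluster can reach near-identical copies. The ferlin Fer1l4 fell by 2.30 (SE 0.11, adjusted p = 0.000207), in the direction of Fer1l6. It differed by -0.68 in the Lgr5 sort, where Fer1l6 was at -4.88.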
